A study of Caenorhabditis elegans with 10 samples.

Results

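The genes described here are 38 genes of RNA interference and of the Argonaute pathways in the nematode Caenorhabditis elegans, chosen by name. No cut on a measured value was used, but earlier results of these data were known at the choice. Of the 38, 34 were measured by a probe set that the platform annotation gives exactly 1 gene symbol, out of 17118 genes measured in that way in the whole series. Where a gene had several such probe sets, the one with the largest mean of the 10 arrays was used. A single probe set carries the symbols of both ppw-1 and sago-2, so these 2 Argonaute genes have no value of their own. The symbols mut-2 and cde-1 were not found in the annotation. The genes known by those names are listed there as rde-3, a nucleotidyltransferase gene, and cid-1, a uridylyltransferase gene; both are given further on and enter no count of the 34.

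The arrays compared untreated worms of mixed stage of 2 strains, with 5 arrays each: Bristol N2, the wild type, and a mutant carrying the deletion allele xpa-1 (ok698) on chromosome I, which lacks the counterpart of the human nucleotide excision repair protein XPA. Both strains were grown at 20 °C for 3 to 4 days on HT115(DE3) bacteria, and each replicate pooled worms from 10 to 20 plates. HT115(DE3) is also the host in common use for feeding worms double-stranded RNA, but the labels give it as food only. Total RNA came from whole animals, so a lower signal from fewer cells of a type cannot be told apart from less RNA per cell.

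RNA interference in this animal starts when long double-stranded RNA is cut by Dicer into short interfering RNAs, which the Argonaute protein RDE-1 binds. RNA-directed RNA polymerases then copy the targeted transcript into many secondary small RNAs, which are loaded on a set of worm-specific Argonautes that act in the cytoplasm or in the nucleus. The same machinery serves several endogenous pathways, among them microRNAs bound by ALG-1 and ALG-2, piRNAs bound by PRG-1, and the germline small RNAs bound by CSR-1 and HRDE-1. Many of these proteins are best known from the germline, where they silence transposons and keep a memory of foreign sequences.

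The values are log2 probe set signals, in which 0 is the lowest value of the scale and a difference of 1 is 2-fold. The xpa-1 transcript checks the labels: it lay between 6.38 and 6.88 on the 5 N2 arrays and between 0 and 1.58 on the 5 mutant arrays. The mutant values are the lowest steps of the scale, so the fitted difference of -5.90 (SE 0.304, limma adjusted p = 4.92e-05) depends on how such values are treated, and it was -2.69 with 16 added to the unlogged signals. Of the measured genes on marker lists of 6 tissues and stages, 0 were at the lowest value on every array, but no detection call was used. The oocyte and maternal germline list, 28 genes, had means of 9.03 ± 0.27 on the N2 arrays and 9.09 ± 0.15 on the mutant arrays (SD, n = 5 each) and ranged over 1.65-fold between the 10 arrays. Its summed signal lay between 13.9 and 14.6 in log2 on the N2 arrays and between 14.2 and 14.5 on the mutant arrays. The sperm list (15 measured genes) ranged over 3.71-fold and the cuticle and molting list (8 measured genes) over 2.62-fold. The sperm list means lay between 3.00 and 4.90, beside array medians of 4 to 4.25 over all probe sets tested. N2 replicates 1 and 5 stood at the 2 ends of the germline list, at 9.35 and 8.62.

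No difference between the strains was detected in any of the 34 RNA interference genes. In limma, 0 of 34 passed an adjusted p of 0.05 over all genes, where 0.111% of all genes passed (0.0584% higher and 0.0526% lower in xpa-1). At an unadjusted p under 0.05 in limma the count was also 0 of 34, where 3.32% of all genes lay under it, and the smallest unadjusted p of a member was 0.158 (limma adjusted p = 1). In 0 of 34 genes did the 5 mutant arrays lie all above or all below the 5 N2 arrays, which was the case for 0.374% of all genes. Differences, as xpa-1 minus N2, ran from -0.13 to 0.36 in log2, with 22 above 0 and 12 below. Over all genes 55.8% were above 0, and of the 8676 genes with a mean log2 signal over 4, 63.9% were. The median difference of the 34 was 0.05, beside 0.02 over all genes, and it was -0.03 without N2 replicate 5. In 0 of 34 genes did the difference exceed the larger of its 2 within-strain SDs.

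The intervals show how large a difference the arrays leave room for. The 95% interval of the difference lay within 2-fold in either direction for all 34 genes, as it did for 76.5% of all genes and 95.6% of those with a mean log2 signal over 4. It lay within 1.5-fold for 31 of 34, beside 50.2% and 81.5%. The lowest bound belonged to alg-1, at 1.52-fold lower in xpa-1, and the highest to the dim rrf-2, at 1.92-fold higher. Without any 1 of N2 replicates 3, 4 and 5 or xpa-1 replicates 1, 2 and 4, it lay within 2-fold for 33 of 34. The exception was rrf-2, whose highest bound over all alternatives was 1.08 in log2. The intervals are those of single genes, and were not widened for the number of genes.

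**Figure D1:**
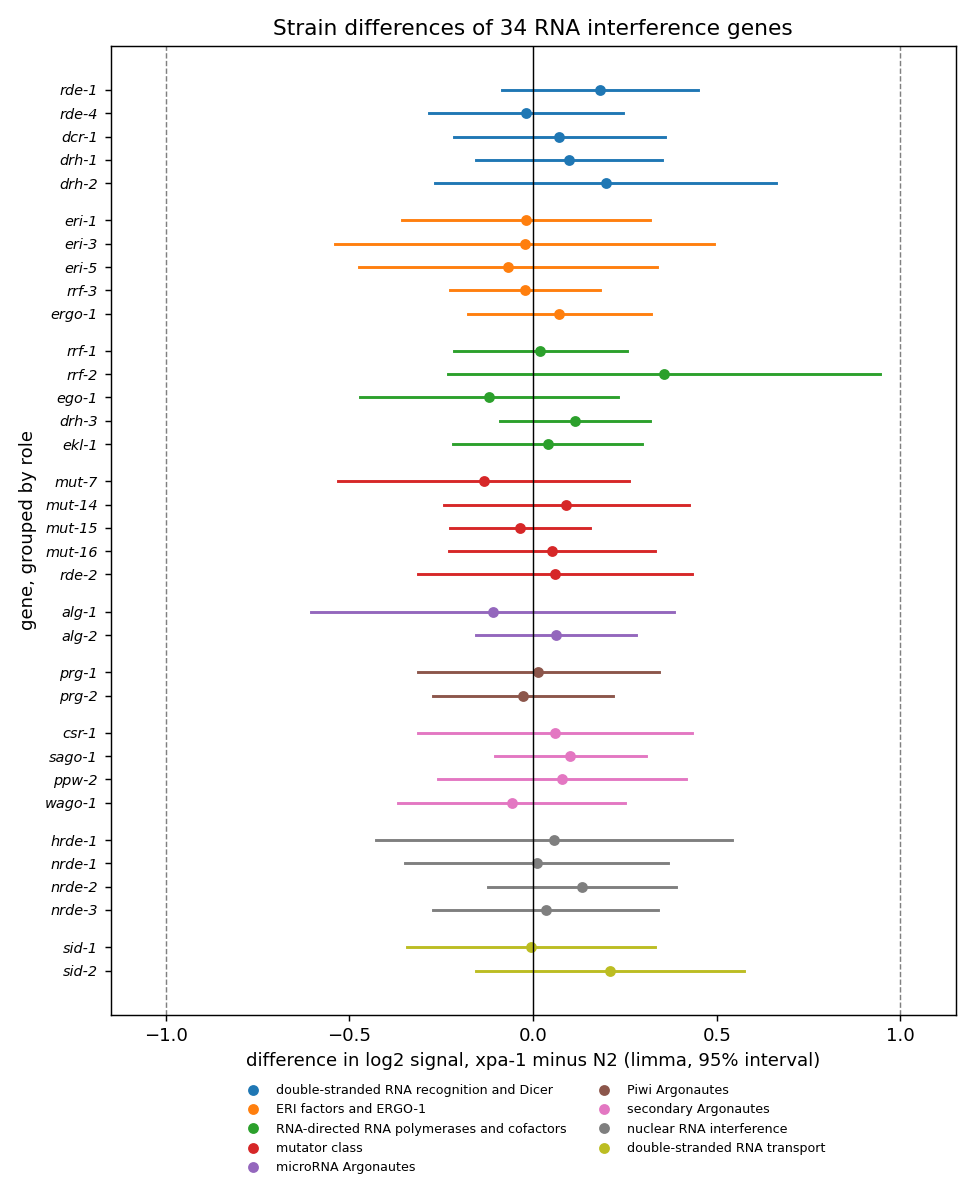
Differences in log2 signal (xpa-1 minus N2) of the 34 measured genes, grouped by role, with points for the limma estimate and bars for its 95% interval. All bars cross 0 and lie between the dashed lines at -1 and 1, and the widest on the right is that of rrf-2.

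The 5 genes that recognise and cut double-stranded RNA had differences from -0.02 to 0.20. The gene rde-1 encodes the primary Argonaute that takes up short interfering RNAs made from foreign double-stranded RNA. Its log2 signals were 7.48, 7.38, 7.18, 7.41 and 7.11 on N2 replicates 1 to 5, and 7.46, 7.68, 7.22, 7.38 and 7.73 on the xpa-1 replicates. The highest pair of values came from xpa-1 replicates 2 and 5, and the other mutant arrays lay inside the N2 range. This gave the smallest p of the 34 (difference 0.18, SE 0.119, 95% interval -0.09 to 0.45, limma unadjusted p = 0.158). A second rde-1 probe set, lower in signal, differed by -0.04 (SE 0.145), on the other side of 0.

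The gene rde-4, whose double-stranded RNA-binding protein hands the RNA to Dicer, read 8.54, 8.57, 8.42, 8.39 and 8.03 in N2 and 8.29, 8.30, 8.46, 8.22 and 8.58 in xpa-1. The mutant arrays lay inside the N2 range or, for xpa-1 replicate 5, 0.01 above it, and N2 replicate 5 alone lay below all of them. Dicer itself, dcr-1, stood at 6.70 ± 0.22 in N2 and 6.78 ± 0.18 in xpa-1 (SD, n = 5 each), with a 95% interval of the difference from -0.21 to 0.36. The Dicer-related helicase gene drh-1, which also acts against viruses, differed by 0.10 (SE 0.112), and its neighbour on chromosome IV, drh-2, by 0.20 (SE 0.206). No protein-coding gene or pseudogene lies between these 2 in the RefSeq gene order of assembly WBcel235. Both genes were read by probe sets of a type (marked s) that may also bind transcripts of relatives. The same limit holds for other genes here: of the 34 probe sets used, 16 were marked s. That of rde-1 was the only one marked x, a type that may bind other transcripts too. Such binding was not tested.

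The ERI factors make the endogenous short interfering RNAs that compete with the exogenous pathway, so that worms lacking them are hypersensitive to RNA interference. Of the 5 genes of this group, 4 had differences between -0.07 and -0.02 and ergo-1, the Argonaute that binds the primary RNAs of this pathway, differed by 0.07 (SE 0.111). The ergo-1 signals were 7.04, 6.94, 6.54, 6.87 and 6.67 in N2 and 6.83, 7.02, 6.75, 6.78 and 7.04 in xpa-1, so that all mutant arrays lay inside the N2 range. The polymerase gene rrf-3, whose loss gives a strain often used for sensitive screens, stood at 5.50 ± 0.16 and 5.47 ± 0.11 (SD, n = 5 each), with a 95% interval of -0.23 to 0.18. The exonuclease gene eri-1 differed by -0.02 (SE 0.15), and both of its probe sets gave nearly the same value (-0.02 each). The genes eri-3 and eri-5, for further proteins of the ERI complex with Dicer, differed by -0.02 (SE 0.229) and -0.07 (SE 0.179).

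Among the RNA-directed RNA polymerases and their cofactors, rrf-2 was the member with the largest difference and the only one with a mean log2 signal under 4. Its signals were 1.58, 2, 2.58, 2.58 and 3.00 in N2 and 2.32, 2.81, 2.81, 2.58 and 3.00 in xpa-1. The values are the lowest steps of a scale made of whole numbers, and the 2 lowest, from N2 replicates 1 and 2, set the difference of 0.36 (SE 0.26, 95% interval -0.23 to 0.94, limma unadjusted p = 0.204). It ran from 0.16 without N2 replicate 1 to 0.52 without N2 replicate 5 when single arrays were left out, and was 0.08 when 16 was added to the unlogged signals.

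The helicase gene drh-3, which works with the polymerases, read 7.09, 7, 6.91, 6.97 and 6.78 in N2 and 7.08, 7.10, 6.93, 6.92 and 7.29 in xpa-1. The highest value was that of xpa-1 replicate 5, and the other mutant arrays lay within the N2 range or 0.01 above it, for a difference of 0.11 (SE 0.0902, 95% interval -0.09 to 0.32). The Tudor domain gene ekl-1 differed by 0.04 (SE 0.114). The somatic polymerase gene rrf-1 stood at 6.37 ± 0.18 and 6.39 ± 0.14 (SD, n = 5 each). The germline polymerase gene ego-1, its neighbour on chromosome I, stood at 6.32 ± 0.30 and 6.20 ± 0.20. For ego-1 a single N2 array, replicate 5 at 5.81, lay apart from the others of its strain, between 6.38 and 6.58. The gene cid-1, which is cde-1 under another name, differed by 0.14 (SE 0.233), with N2 replicate 5 again lowest at 5.29.

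The mutator genes are needed for the amplification of small RNAs and for holding transposons silent in the germline. Of this group, mut-16, which organises the perinuclear foci where amplification takes place, read 7.75, 7.61, 7.38, 7.58 and 7.13 in N2 and 7.48, 7.77, 7.40, 7.48 and 7.58 in xpa-1. Except for xpa-1 replicate 2, 0.02 above the highest N2 array, the mutant arrays lay inside the N2 range (difference 0.05, SE 0.124). The exonuclease-domain gene mut-7 had the lowest difference of all 34, -0.13 (SE 0.175, 95% interval -0.53 to 0.26). Its 2 probe sets fell on different sides of 0, since the other one differed by 0.09 (SE 0.184). The helicase gene mut-14 differed by 0.09 (SE 0.148), mut-15, for a further protein of these foci, by -0.04 (SE 0.0848) and rde-2, whose protein binds MUT-7, by 0.06 (SE 0.166). The nucleotidyltransferase gene rde-3, which is mut-2 under another name, stood at 6.97 ± 0.21 and 7.12 ± 0.21 (SD, n = 5 each; difference 0.14, SE 0.131).

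On the probe set used, the microRNA Argonaute alg-1 varied more between the mutant arrays than between the N2 arrays (SD 0.458 and 0.236, n = 5 each). Its log2 signals were 6.17, 6.70, 6.78, 6.61 and 6.58 in N2 and 6.58, 5.98, 7.03, 6.70 and 6 in xpa-1. Both the lowest and the highest of the 10 values belonged to the mutant, the difference was -0.11 (SE 0.219), and its interval reached 1.52-fold lower. A further 2 alg-1 probe sets differed by -0.06 (SE 0.0857) and 0.01 (SE 0.214), and their spread within each strain was not compared. The related Argonaute alg-2 read 7.08, 6.93, 6.92, 6.83 and 6.66 in N2 and 6.75, 6.86, 7.02, 7.09 and 7.01 in xpa-1. Except for xpa-1 replicate 4, 0.01 above the highest N2 array, the mutant arrays lay inside the N2 range, and the difference was 0.06 (SE 0.0965, 95% interval -0.16 to 0.28).

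The Piwi Argonaute gene prg-1, whose protein binds the piRNAs of the germline, read 8.06, 7.92, 7.88, 7.97 and 7.30 in N2 and 7.90, 8.06, 7.77, 7.71 and 7.76 in xpa-1. The low value of N2 replicate 5 lay apart, and the difference was 0.01 (SE 0.146). Its close relative prg-2 read 8.42, 7.94, 7.94, 8.10 and 7.86 in N2 and 8.11, 8.04, 7.98, 7.90 and 8.09 in xpa-1, and all mutant arrays lay inside the N2 range (difference -0.03, SE 0.109). How far the probes of these 2 genes tell their transcripts apart was not tested.

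The Argonautes that bind secondary small RNAs differed by -0.06 to 0.10 over the 4 measured genes. The gene wago-1 encodes a germline Argonaute of the silencing pathways. It read 8.46, 8.77, 8.42, 8.56 and 8.09 in N2 and 8.22, 8.50, 8.51, 8.18 and 8.60 in xpa-1, with both ends of the range in N2. The gene csr-1, whose slicing Argonaute marks transcripts that germ cells express and which is essential for chromosome segregation, stood at 6.88 ± 0.25 and 6.94 ± 0.29 (SD, n = 5 each; 95% interval -0.31 to 0.43). The gene sago-1 encodes a further secondary Argonaute of exogenous RNA interference. It read 7.06, 6.82, 6.94, 7.03 and 6.71 in N2 and 7.10, 6.95, 6.85, 7 and 7.17 in xpa-1. The mutant replicates 1 and 5 lay above all N2 arrays and the other 3 among them (difference 0.10, SE 0.0913, 95% interval -0.10 to 0.31). The gene ppw-2, for another Argonaute of this class, differed by 0.08 (SE 0.15).

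The 4 genes of nuclear RNA interference, whose products carry silencing to the chromatin and, in the germline, to the offspring, had differences from 0.01 to 0.13. The nuclear germline Argonaute hrde-1 read 7.60, 7.24, 6.64, 7.27 and 6.58 in N2 and 7.20, 7.34, 6.77, 6.97 and 7.33 in xpa-1. The N2 arrays covered a range that held every mutant array, the difference was 0.06 (SE 0.215), and its other probe sets differed by -0.03 (SE 0.155) and -0.15 (SE 0.131). The gene nrde-2, which acts on nascent transcripts, read 6.38, 6.30, 6.02, 6.36 and 6.36 in N2 and 6.43, 6.30, 6.19, 6.44 and 6.73 in xpa-1. The low N2 replicate 3 and the high xpa-1 replicate 5 opened the difference of 0.13 (SE 0.114, 95% interval -0.12 to 0.39). The somatic nuclear Argonaute nrde-3 and its partner nrde-1 differed by 0.03 (SE 0.135) and 0.01 (SE 0.159).

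Transport of double-stranded RNA between cells and from the gut was represented by 2 genes. The gene sid-2 encodes the intestinal protein needed to take up eaten double-stranded RNA. It read 4.91, 4.70, 5.25, 5.39 and 5 in N2 and 5.55, 4.86, 5.21, 5.36 and 5.32 in xpa-1, with the highest value in xpa-1 replicate 1 and the lowest in N2 replicate 2 (difference 0.21, SE 0.162, 95% interval -0.16 to 0.58, limma unadjusted p = 0.226). The channel gene sid-1 stood at 5.01 ± 0.28 and 5.01 ± 0.20 (SD, n = 5 each), a difference of -0.01 (SE 0.149).

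**Figure D2:**
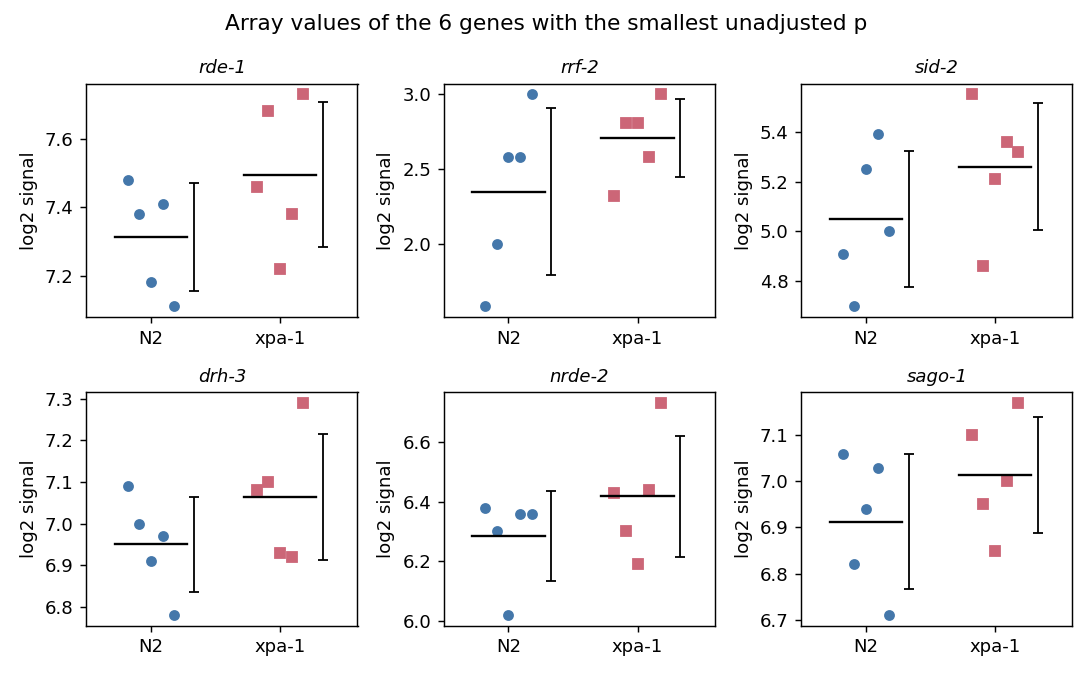
Log2 signals of the 6 genes with the smallest unadjusted p, with a point for each array, a line for the mean of the 5 arrays and a bar for ± 1 SD. In all 6 genes the arrays of the 2 strains overlap, and the largest gap between the means is 0.36 for rrf-2.

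By position the measured genes were spread over all 6 chromosomes. The 10 genes on chromosome I, which also carries xpa-1, had a median difference of 0.05 (range -0.12 to 0.36), and the 24 on the others a median of 0.05 (range -0.13 to 0.21). In all, 48 probe sets with 1 symbol belonged to the 34 genes. Of these 0 passed in limma over all probe sets, and the smallest unadjusted p was 0.157. The 95% interval lay within 2-fold for all 48. Of the 11 genes with more than 1 probe set, 5 had probe sets on both sides of 0, never more than 0.22 apart.

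The 10 arrays of a gene spanned from 1.33-fold (mut-15) to 2.68-fold (rrf-2), with a median of 1.65-fold. N2 replicate 5 was the lowest of the 10 arrays for 21 of the 34 genes, and N2 replicate 1 was the highest for 11 and xpa-1 replicate 5 for 10. Measured from the mean of each gene, the median deviation was -0.26 on N2 replicate 5, 0.17 on N2 replicate 1 and 0.20 on xpa-1 replicate 5. The matching shares and deviations over all genes were not computed, so the pattern cannot be read as particular to these genes. The SD was larger over the N2 arrays than over the mutant arrays for 24 of 34 genes, beside 54.9% of all genes and 64.2% of those with a mean log2 signal over 4. Without N2 replicates 1 and 5, a setting chosen after seeing the data, 0 of 34 genes passed in limma and the median difference was 0.05.

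**Figure D3:**
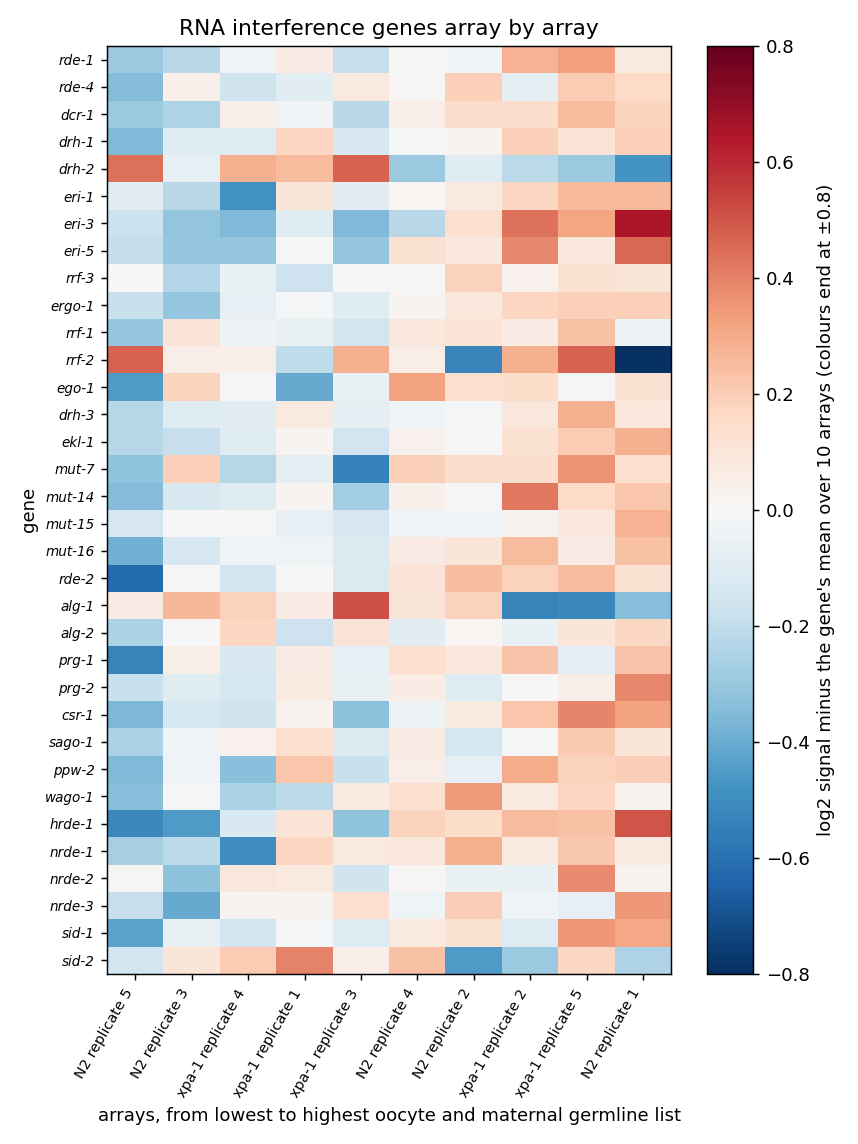
Log2 signal of each gene minus its mean over 10 arrays, in colour, with the arrays ordered from the lowest to the highest mean of the oocyte and maternal germline list. Most genes are below their mean on N2 replicate 5 at the left and above it on xpa-1 replicate 5 and N2 replicate 1 at the right, while drh-2 is high at the left and low at the right and alg-1 is low on the 3 arrays at the right.

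This array-to-array variation was set against the mean of the oocyte and maternal germline list, used as a stand-in for the germline content of the cultures. Whether the list mean measures that content was not tested. Over the 10 arrays, 17 of 34 genes were related to the list by Pearson's r (permutation test with 100000 resamples, two-sided, adjusted over 68 relations), 16 with r above 0 and drh-2 with r below 0. Of the 17, 12 also passed by Spearman's rho. The median r of the 34 genes was 0.726, beside 0.221 over the 8648 genes with a mean log2 signal over 4 that are not on the list. Of those 8648 genes, 26.7% had an r above 0.726. The share of them that would pass the adjusted test was not computed, so the count of 17 cannot be read as particular to the 34 genes. At an unadjusted permutation p under 0.05, 21 of 34 had r above 0, against 32.9% of those genes, and 1 had r below 0, against 17.7%. The points share the 10 arrays and their scaling, and genes are not independent replicates.

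The highest r were those of mut-16, rde-2 and csr-1. For mut-16, r was 0.925 and rho 0.884 over 10 arrays (permutation p = 0.00047 and 0.00143, adjusted 0.011 and 0.0162), and r was 0.775 without N2 replicates 1 and 5, the 2 arrays farthest from the median of the list. For rde-2, r was 0.903 and rho 0.835 (permutation p = 0.00081 and 0.004, adjusted 0.011 and 0.0277), and r was 0.878 without those arrays. For csr-1, r was 0.885 and rho 0.879 (permutation p = 0.00031 and 0.0017, adjusted 0.011 and 0.0165), and r was 0.87 without them. The Dicer gene dcr-1 had r = 0.853 and rho = 0.936 (permutation p = 0.00079 and 0.00028, adjusted 0.011 and 0.00635), and r = 0.806 without them. The nuclear Argonaute hrde-1 had r = 0.855 and rho = 0.939 (permutation p = 0.00112 and 0.00023, adjusted 0.0127 and 0.00635), and r = 0.711 without them.

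By role, 4 of 5 mutator genes, 4 of 5 genes of double-stranded RNA recognition and 2 of 5 ERI genes were related with r above 0. The same held for 2 of 5 polymerase genes and cofactors, 1 of 2 Piwi genes, 1 of 4 secondary Argonautes, 1 of 4 nuclear genes and 1 of 2 transport genes, where sid-1 had r = 0.879 and rho = 0.754 (permutation p = 0.00146 and 0.0158, adjusted 0.0142 and 0.0671). Neither microRNA Argonaute was, with r = -0.594 for alg-1 and 0.622 for alg-2 (permutation p = 0.072 and 0.0535, adjusted 0.158 and 0.14). Without N2 replicates 1 and 5, r was -0.805 for alg-1 and 0.038 for alg-2. Some genes lay just outside the limit, among them eri-5 at r = 0.723 and ppw-2 at r = 0.73 (permutation p = 0.0167 and 0.0142, adjusted 0.0573 and 0.0538). The groups are small and no matching share over all genes was computed, so these counts do not rank the roles. The helicase genes drh-1 and drh-2, although neighbours, went opposite ways, with r = 0.861 and rho = 0.781 for drh-1 (permutation p = 0.00181 and 0.0108, adjusted 0.0154 and 0.0491) and r = -0.794 and rho = -0.79 for drh-2 (permutation p = 0.00378 and 0.0096, adjusted 0.0257 and 0.0491). The drh-2 signals were 4.91, 5.29, 5.32, 5.09 and 5.83 in N2 and 5.64, 5.17, 5.86, 5.67 and 5.09 in xpa-1, so that the low and high arrays came from both strains.

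Without N2 replicates 1 and 5, 0 of 34 genes passed the adjusted test over the remaining 8 arrays. The r of all 17 kept its sign there, with a median size of 0.775 beside 0.825 over 10 arrays. It was 0.259 for prg-1, between 0.532 and 0.935 in size for the other 16, and larger in size than over 10 arrays for 3 of the 17. The count was 11 without N2 replicate 1, 5 without N2 replicate 5, and 10 without xpa-1 replicate 2 or xpa-1 replicate 5. It also depended on the scaling, with 9 genes after quantile normalization of the arrays and 30 after centring each array on its median. It was 19 on deviations from the strain means. Those deviations are centred within each strain, which the permutation test ignored, so that count may be too high. The cuticle and molting list was low where the germline list was high, at 6.35 on N2 replicate 1 and 6.68 on xpa-1 replicate 5 against 7.74 on N2 replicate 5. The neuron list stood at 6.001 and 6.325 against 7.009 on the same arrays, the intestine list at 7.53 and 7.57 against 7.97, and the muscle list at 9.43 and 9.25 against 9.68. The part of these lists in the result was not tested. To the sperm list 0 of 34 genes were related by the adjusted permutation test, with 2 at an unadjusted p under 0.05. Of genes with a mean log2 signal over 4, 5.53% passed that unadjusted limit with r above 0 and 2.03% with r below 0. The 2 genes were rrf-3 (r = -0.736, rho = -0.485, permutation p = 0.0168 and 0.161, adjusted 0.0573 and 0.353) and sid-2 (r = 0.695, rho = 0.515, permutation p = 0.0257 and 0.133, adjusted 0.076 and 0.324). The count by the adjusted test, 0 with all arrays, was 1 without N2 replicate 4 and 2 without xpa-1 replicate 4. With the germline list as a covariate in limma, 0 of 34 genes differed between strains and the median difference was -0.01.

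**Figure D4:**
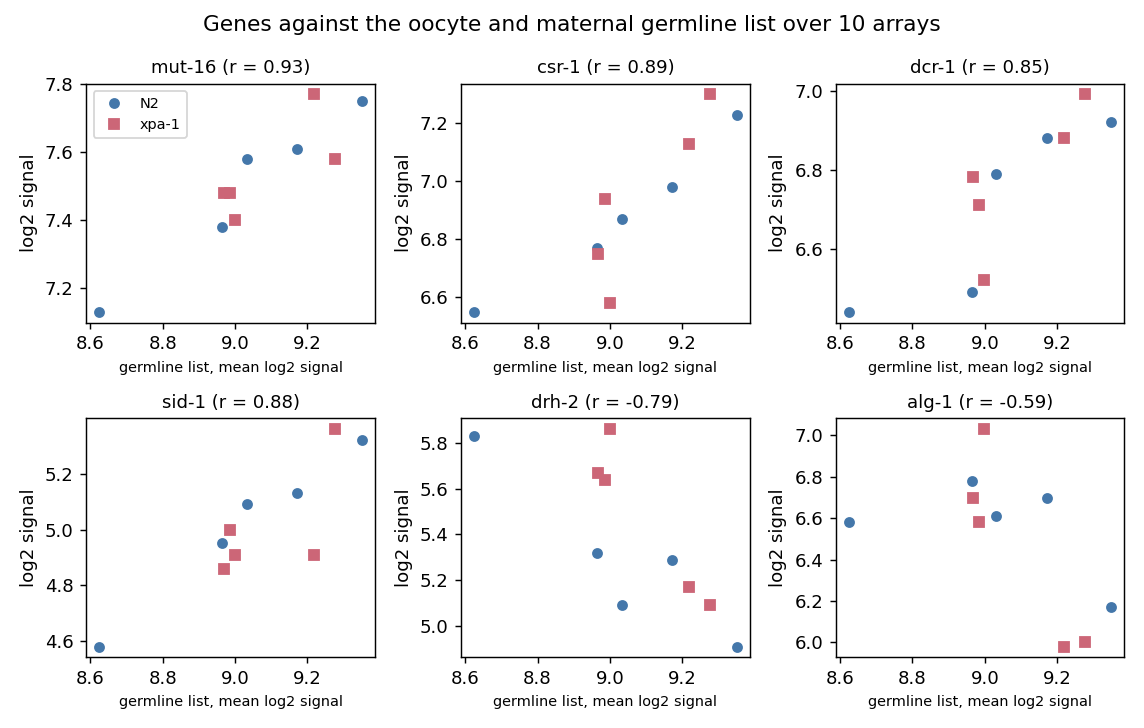
Log2 signal of 6 genes against the mean log2 signal of the oocyte and maternal germline list, with circles for the 5 N2 arrays and squares for the 5 xpa-1 arrays. The genes mut-16, csr-1, dcr-1 and sid-1 are higher on arrays with a high list mean, drh-2 is lower, and the arrays of both strains are intermixed in each panel; the relation of alg-1 did not pass the adjusted test.

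Of 49 further measured genes of these pathways, chosen by their known roles, 1 passed the threshold in limma and it was lower in xpa-1 (0.0526% of all genes were called lower). This was haf-6, for an ABC transporter of the half-molecule type that is needed for efficient RNA interference. Its log2 signals were 5.73, 5.49, 5.67, 5.81 and 5.32 in N2 and 4.09, 4.00, 4.00, 3.81 and 4.09 in xpa-1, with every mutant array below every N2 array. The difference was -1.61 (SE 0.105, 95% interval -1.84 to -1.37, limma adjusted p = 0.000226). With replicate number as a block the difference was the same and the call was lost (limma adjusted p = 0.101), and with 16 added to the unlogged signals the difference was -1.02 (limma adjusted p = 0.00021). The transporter genes haf-2 and haf-9, also linked to RNA interference, differed by 0.15 (SE 0.131) and -0.04 (SE 0.208). Like haf-9, haf-6 lies on chromosome I, which also carries xpa-1. Whether the haf-6 difference goes with the deletion or with linked strain background was not tested. The haf-6 gene was placed on the list with its result known, so its call there is no independent evidence.

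**Figure D5:**
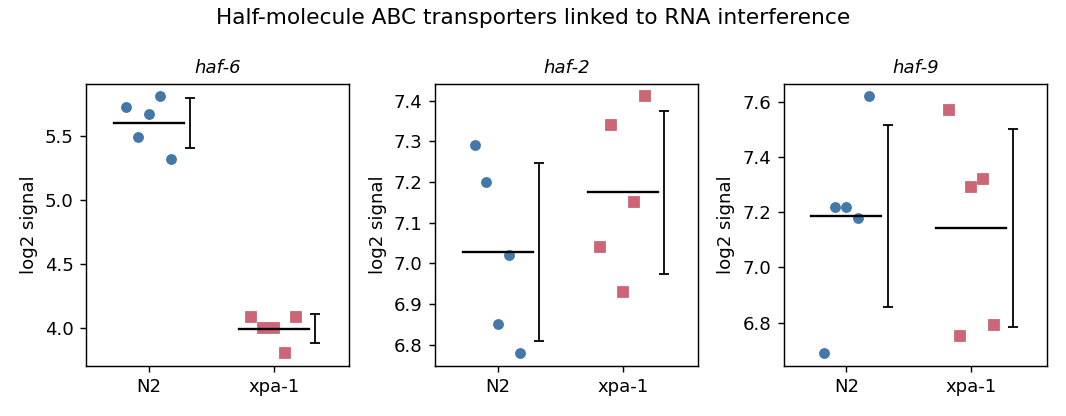
Log2 signals of haf-6, haf-2 and haf-9, with a point for each array, a line for the mean of the 5 arrays and a bar for ± 1 SD. The haf-6 arrays of xpa-1 lie between 3.81 and 4.09 and those of N2 between 5.32 and 5.81, whereas the strains overlap for haf-2 and haf-9.

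Of the other 46 of these genes, 0 passed in limma, and 1 had an unadjusted p under 0.05. That gene was tsn-1, for the Tudor staphylococcal nuclease of the silencing complex, on the list of microRNA processing and silencing genes (8 genes, median difference 0.06). It read 4.17, 4.17, 4.09, 4.25 and 4.09 in N2 and 4.39, 4.58, 4.17, 4.32 and 4.39 in xpa-1, and only xpa-1 replicate 3 overlapped with the N2 arrays (difference 0.22, SE 0.0803, limma unadjusted p = 0.0244, adjusted p = 1). Further factors of small RNA amplification (10 genes) had a median of 0.09, with the smallest p at rsd-6 (difference -0.29, SE 0.136), needed for systemic RNA interference in the germline. Factors of systemic and exogenous RNA interference (8 measured of 9) had a median of 0.06, with eri-7 at -0.19 (SE 0.162). The piRNA and nuclear silencing factors (11 genes) had a median of 0.03, with the heterochromatin protein gene hpl-2 at 0.15 (SE 0.121).

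The remaining Argonaute genes (9 genes) had a median difference of 0.15, of which 6 were above 0, and 0 passed in limma. The smallest p was that of vsra-1 (difference 0.15, SE 0.0814, limma unadjusted p = 0.0903). The gene alg-3, an Argonaute of spermatogenesis chosen here after its values were seen, was the Argonaute gene with the widest interval, -1.88 to 2.54. It was listed at 0 on N2 replicates 1 and 2, and read 3.81, 4.52 and 3.32 on N2 replicates 3 to 5 and 4.17, 2.81, 2, 2.32 and 2 in xpa-1. The sperm list had means of 3.91 and 3.00 on those first 2 N2 arrays, 4.74, 4.90 and 4.01 on the other N2 arrays, and 4.82, 4.03, 3.86, 3.71 and 3.93 on the mutant arrays. The gene alg-4, on the same Argonaute list, read 3.81, 4.64, 4.17, 4.00 and 4.39 in N2 and 3.91, 4.32, 4.52, 4.39 and 4.32 in xpa-1. Its highest value came from N2 replicate 2, where the sperm list was lowest. A relation of alg-3 or alg-4 to the sperm list was not tested.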

How the data were processed

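Total RNA of 5 N2 and 5 xpa-1 replicates was hybridised to 1 array each. The authors deposited 1 log2 signal per probe set and array, made with Affymetrix Expression Console per the submitters' processing notes; for the summary method, background step and scaling, the sources used here name none. Below 5 in log2, every value corresponded to a whole-number signal (tolerance 0.005). The file holds 22625 probe sets, of which 77 controls were left out; of the others 20766 had 1 gene symbol, 887 several and 895 none, and 17118 genes were tested. The deposited log2 values entered limma 3.58.1, run in R 4.3.3 (lmFit, eBayes, strain as the only term, two-sided, Benjamini-Hochberg over all genes). Array medians lay between 4 and 4.25. Precision is limited by how many arrays there are. In simulated data with 17118 genes and the spread of these arrays, 50 genes each were changed by 1.5, 2, 4 and 8-fold. All had a mean log2 signal over 4. In these data limma called 32% of genes changed by 1.5-fold and 80% of those changed by 2-fold. The larger planted changes ease the adjusted threshold for the smaller ones. The real comparison called 19 genes, so these shares may be too high for it. Replicates are separate worm collections per the labels' protocols. Gene symbols, chromosomes and neighbours came from the platform annotation and RefSeq (WBcel235). Neighbours were read from protein-coding genes and pseudogenes only. The genes and lists were chosen with earlier results of these data known. All measured genes are accounted for. Every array was given for the 6 genes with the smallest p and for the brightest 1 or 2 of each role, as well as for further genes the text describes. Of each other list the members past the threshold or, failing that, the smallest p is named. Alternatives were other scalings, an offset, a filter on dim genes, the mean of all probe sets, trend and robust variance, array weights, replicate number as a block, stage lists as covariates, and leaving out arrays.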

Additional observations from a re-analysis of the deposited data

Results flagged for a closer look

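In 6 of 68 sets of 5 array values, each set being 1 gene in 1 strain, 1 array stood far from the other 4. Of independent, normally distributed sets about 1 in 20 would pass the limit used. These sets share their arrays, and the share over all genes was not computed. The count is therefore no result about these genes. In N2 replicate 5, ego-1 read 5.81 against 6.38 to 6.58 on the other N2 arrays, mut-7 read 6.49 against 6.94 to 7, and prg-1 read 7.30 against 7.88 to 8.06. In N2 replicate 3, nrde-2 read 6.02 against 6.30 to 6.38. Among the mutant arrays, nrde-1 read 5.29 in xpa-1 replicate 4 against 5.86 to 6, and sid-1 read 5.36 in xpa-1 replicate 5 against 4.86 to 5.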

How the results depend on the processing

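Over 21 alternatives, 713 differences of single RNA interference genes were recomputed, and 0 passed in limma (smallest adjusted p = 0.946). Of these, 82 changed sign and 0 moved by more than the larger within-strain SD, so no direction is given to any of the 34 genes. The median difference ran from -0.03 to 0.11 when 1 array was left out. The xpa-1 call held in every alternative that tested it; the filter on dim genes removed that gene. Its difference ran from -6.12 to -5.72 when 1 array was left out and was -2.69 with the offset of 16. The haf-6 call held in 20 of 21 alternatives, with a difference of -1.02 with the offset of 16. Same-numbered arrays of the 2 strains did not deviate together (correlations from -0.705 to 0.022). Whether they were handled together was not tested. With replicate number as a block, 0 of the 49 other genes passed (haf-6 at an unchanged difference of -1.61, limma adjusted p = 0.101). In that setting 27 of 34 genes passed for the germline list and 3 for the sperm list. There the deviations of same-numbered arrays are equal with opposite sign, and the permutation test treats these mirrored values as separate arrays. These 2 counts are therefore no evidence of a relation. The count related to the germline list was 9 with quantile normalization, 30 with each array centred on its median, 0 without N2 replicates 1 and 5 (added after seeing the data), and from 5 to 16 when 1 array was left out. The count related to the sperm list was 2 on deviations from the strain means and from 0 to 2 when 1 array was left out. The count on deviations may be too high, since the permutation test ignored their centring within each strain. The cause of the changes in these counts was not tested.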
